A study of Mus musculus with 9 samples.

Results

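The genes described here are a chosen set of 37 mouse genes for the assembly of peroxisomes, for the oxidation of fatty acids inside them and for the synthesis of ether lipids. They were taken by symbol from a deposited table of 10762 genes, and 35 of the 37 were in it; Phyh and Far2 were not in the table and were not analysed here. The libraries came from cultured B16.SIY cells, mouse melanoma cells (strain C57BL/6) that make SIY, a model antigen, joined to the red fluorescent protein dsRED. All groups had been infected with an shRNA lentivirus and selected with puromycin as stable lines: a control hairpin (SHC002), shRNA1 against Decr2 (TRCN0000042099) and shRNA2 against Decr2 (TRCN0000042100). Each group had 3 libraries, numbered 0, 1 and 2 in the labels. Each group is 1 stable line, and no label says that its libraries were separate cultures, so the p-values cover only library-to-library spread, part or all of which may be technical. The study asked how messenger RNA differs between the Decr2 knockdown lines and the control line.

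Peroxisomes are small organelles that shorten very long and branched fatty acids by beta- and alpha-oxidation, release hydrogen peroxide in doing so, and carry out the first steps of ether lipid (plasmalogen) synthesis. They import folded matrix enzymes with the peroxins: Pex5 and Pex7 carry the enzymes, Pex13 and Pex14 form the docking site, Pex2 and Pex10 belong to a ubiquitin ligase that recycles Pex5, and Pex6, anchored by Pex26, belongs to the ATPase that pulls Pex5 out again. Decr2, the target of the hairpins, is itself a peroxisomal enzyme, a 2,4-dienoyl-CoA reductase needed for unsaturated fatty acids.

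Values are the log2 values of the deposited table, 1 per gene and library. Raised to the power of 2 they sum to between 969465 and 1045849 per library, and read depth is not known. Whether they are scaled to gene length is not given, so differences are taken between libraries and not between genes. Where genes are ranked by level below, gene length may enter the order. The median SD between the libraries of a group was 0.11 for the 35 genes with the control hairpin, 0.14 with shRNA1 and 0.12 with shRNA2. All 8 melanocyte lineage markers that were looked for (Mitf, Sox10, Dct, Tyrp1, Pmel, Mlana, Tyr and Gpnmb) were in the table, and 3 of 20 markers of leukocytes, fibroblasts, endothelium, epithelium and red cells were (Col1a1, Pdgfrb and Plvap). Decr2 had log2 values of 3.96, 4.10 and 3.71 with the control hairpin, 2.87, 2.51 and 3.18 with shRNA1, and 0.84, 1.18 and 1.55 with shRNA2, so the knockdown was partial with shRNA1 and deeper with shRNA2. In bulk RNA a lower value cannot be told apart as fewer expressing cells or less RNA per cell.

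Few of the 35 genes passed the test, and every one that did was above control in the comparison in which it passed. A gene passed at a limma adjusted p under 0.05 over all 10762 genes. With shRNA1, 3 of 35 rose (Pxmp4, Pex7 and Pex19) and 0 fell, or 8.57% of the set, where 12.4% of all genes passed. With shRNA2, 4 of 35 rose (Pxmp4, Pex7, Pex13 and Crot) and 0 fell, or 11.4%, where 12.9% of all genes passed. In the average of both hairpins 4 rose (Pxmp4, Pex7, Pex5 and Pex19), or 11.4% against 17.6% of all genes. Pxmp4 and Pex7 passed with each hairpin, or 5.71% of the set, where 7.55% of all genes passed with both in the same direction (4.54% higher, 3.01% lower). These shares were near or below the background. By direction, 6.92% of all genes rose with shRNA1, 7.27% with shRNA2 and 9.69% in the average, slightly below the shares of the set, and 5.49%, 5.67% and 7.89% fell. An unadjusted p under 0.05 was reached by 12 of the 35 genes with shRNA1 (34.3%, where 28.7% of all genes did), 11 with shRNA2 (31.4% against 29.3%) and 14 in the average (40% against 33.2%). Of these, Hsd17b4 and Selenoi were below control with shRNA1, Selenoi in the average and 0 genes with shRNA2.

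The differences were small and leaned upward. The median of the 35 genes was 0.15 above control on the log2 scale with shRNA1, 0.16 with shRNA2 and 0.17 in the average, where the median of all genes was 0.00 in each. In the average 25 of the 35 genes, or 71.4%, lay above control, compared with 49.9% of all genes. The set was chosen with earlier results of these data known. Its shares beside those of all genes, here and below, are therefore not a blind comparison. The range ran from -0.32 (Selenoi) to 0.77 (Pxmp4). Both hairpins were compared with the same 3 control libraries, so their differences are not independent of each other. In the table as a whole low values also leaned upward: the median gene in the lowest 25% of mean log2 values was 0.15 above control in the average and the median gene in the highest 25% was at -0.08. Of the 35 genes, 11 lay in the lowest 25% (median 0.25) and 7 in the highest (median 0.09). Calls followed level too: 15.4% of all genes in the lowest 25% rose in the average, and 4.31% in the highest 25%. How far this lean with level moves the genes of the set or their counts was not tested.

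**Figure D1:**
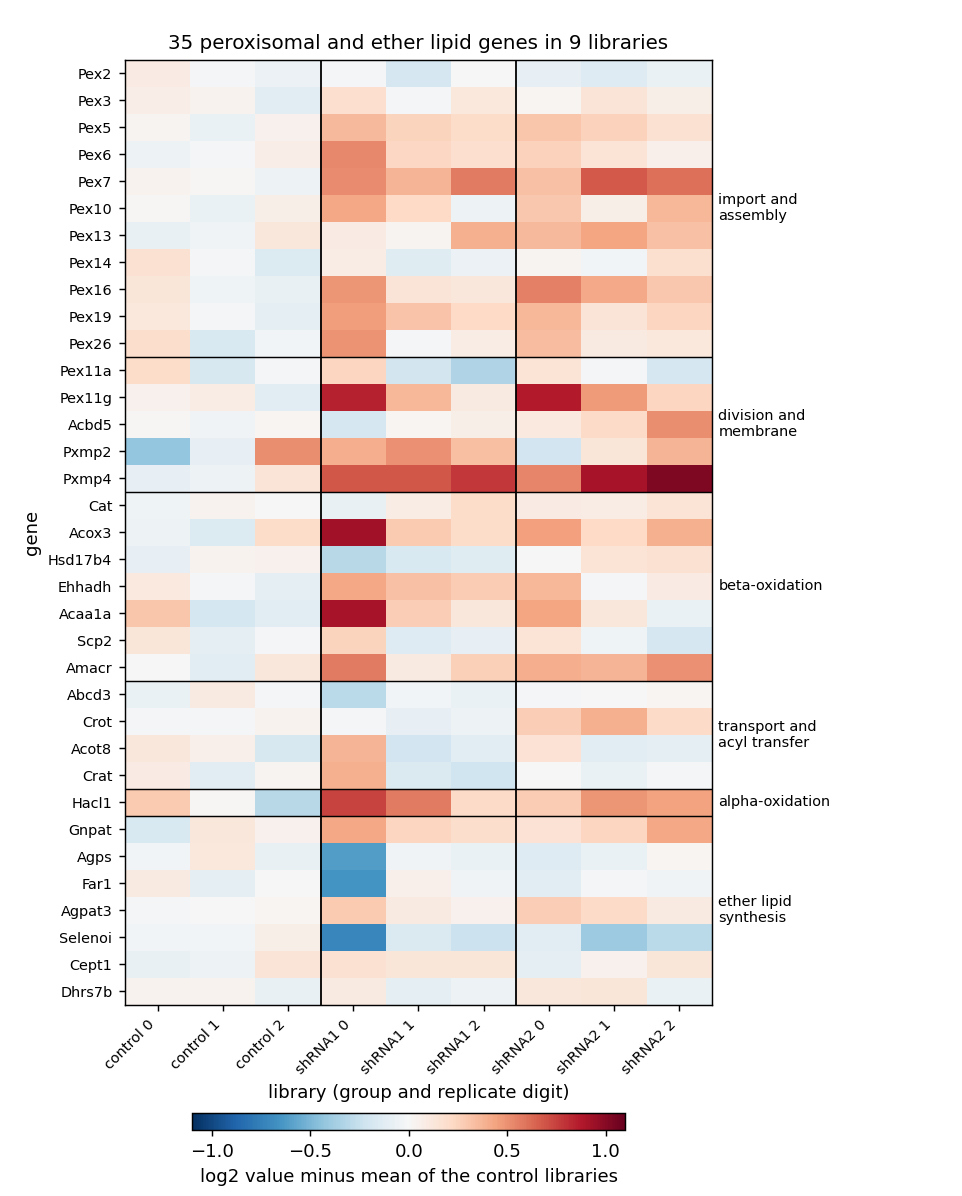
Log2 value of each of the 35 genes (rows, by role) in each of the 9 libraries (columns), minus the mean of the 3 control libraries; red is above and blue below that mean. Pxmp4 and Pex7 are red in all 6 hairpin libraries, and replicate 0 of shRNA1 holds the deepest blue cells (Agps, Far1 and Selenoi).

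Of the receptors that bring enzymes to the peroxisome, Pex7 passed with each hairpin and Pex5 in the average of both. Pex7 (ENSMUSG00000020003, chromosome 10, from 19853900 to 19907689 on the minus strand in GRCm38), the receptor for enzymes with the second, N-terminal type of targeting signal, had log2 values of 4.79, 4.77 and 4.70 in the control libraries, 5.27, 5.12 and 5.33 with shRNA1, and 5.08, 5.43 and 5.35 with shRNA2. All 6 hairpin values lay above the 3 controls. It rose by 0.49 with shRNA1 (SE 0.10, limma adjusted p = 0.0197), a fold of 1.40, and by 0.53 with shRNA2 (SE 0.10, limma adjusted p = 0.0141), a fold of 1.45. Over the 16 alternatives run the differences ranged from 0.45 to 0.55 and from 0.46 to 0.66. The shRNA1 call failed on leaving out control libraries 1 and 2 in turn (adjusted p = 0.0713 and 0.0829) and library 2 of shRNA1 (0.0648). The shRNA2 call failed on leaving out those control libraries (0.0563 and 0.0622) and libraries 1 and 2 of shRNA2 in turn (0.0592 and 0.0603). In the average, Pex7 passed in each of the 15 alternatives run (adjusted p from 0.000658 to 0.0448).

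Pex5, the receptor for enzymes that carry the C-terminal signal, had control values of 5.86, 5.76 and 5.88. With shRNA1 the values were 6.19, 6.08 and 6.03, and with shRNA2 they were 6.14, 6.08 and 6.00. No hairpin value overlapped a control value, although the distance was small. The gene rose by 0.26 in the average of both hairpins (SE 0.07, limma adjusted p = 0.0287), and its differences with shRNA1 (0.27, adjusted p = 0.0507) and shRNA2 (0.24, adjusted p = 0.0677) did not pass. With the replicate number as a block both passed (adjusted p = 0.0256 and 0.0374). The average call failed when a control library was left out (adjusted p = 0.0602, 0.143 and 0.0832 for replicates 0, 1 and 2) and without shRNA2 replicate 1 (0.0608).

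At the docking site Pex13 passed with shRNA2 and Pex14 passed with neither hairpin. Pex13 had control values of 5.29, 5.34 and 5.50, and 5.47, 5.41 and 5.77 with shRNA1, which overlap the controls. With shRNA2 the values were 5.74, 5.81 and 5.70, all above the controls. Pex13 rose with shRNA2 by 0.37 (SE 0.11, limma adjusted p = 0.049), and its difference with shRNA1 was 0.17 (95% interval -0.07 to 0.41, adjusted p = 0.322); the gap of 0.20 between the lines did not pass (adjusted p = 0.604). The call sits at the threshold: it was lost without any 1 of control replicates 0, 1 and 2 (adjusted p = 0.12, 0.156 and 0.0822), shRNA1 replicate 1 (0.0513) or shRNA2 replicates 0, 1 and 2 (0.0889, 0.151 and 0.109), without the 3 libraries numbered 0 (0.0507), with centred libraries (0.0532) and without an intensity trend (0.0594). Pex14 was at -0.04 with shRNA1 (95% interval -0.28 to 0.20) and 0.06 with shRNA2 (-0.18 to 0.30).

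Of the recycling machinery, none passed in the fit without the replicate block. Pex2, a subunit of the ubiquitin ligase, was 0.09 below control in the average (95% interval -0.24 to 0.06), and its 3 shRNA2 values (5.75 to 5.81) lay just under the lowest control value of 5.82. Pex10, another subunit, was 0.22 above control (-0.08 to 0.52). Pex6, the ATPase, had control values of 5.25, 5.28 and 5.38 and shRNA1 values of 5.83, 5.53 and 5.49, with a difference of 0.31 (SE 0.10, limma adjusted p = 0.0818; 0.0435 with the replicate block); with shRNA2 the difference was 0.16 (adjusted p = 0.361). Pex26, its anchor, was 0.19 above control in the average (95% interval -0.12 to 0.49).

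Pex3, Pex16 and Pex19 place proteins into the peroxisomal membrane, with Pex19 as the carrier and Pex3 and Pex16 in the membrane. Pex19 had control values of 6.53, 6.40 and 6.32, shRNA1 values of 6.87, 6.73 and 6.64, and shRNA2 values of 6.78, 6.56 and 6.66. In every group replicate 0 was the highest, and the lowest hairpin value lay only slightly above the highest control. It rose by 0.33 with shRNA1 (SE 0.09, limma adjusted p = 0.0498) and by 0.29 in the average (SE 0.08, adjusted p = 0.0382), and its difference of 0.25 with shRNA2 did not pass (adjusted p = 0.114; 0.0262 with the replicate block). The call with shRNA1 was lost in 11 of 16 alternatives (adjusted p up to 0.182): on leaving out control libraries 1 and 2 in turn (0.156 and 0.182), each shRNA1 library (0.0807, 0.0977 and 0.0648) or shRNA2 libraries 1 and 2 (0.0656 and 0.0796), and under 4 other settings. The average call failed on leaving out control libraries 1 and 2 in turn (0.141 and 0.171), shRNA1 library 1 (0.06) or shRNA2 libraries 0 and 2 (0.0605 and 0.0718), and without an intensity trend (0.0506).

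Pex16 and Pex3 did not pass. Pex16 had control values of 3.26, 3.08 and 3.05, shRNA1 values of 3.61, 3.27 and 3.26 and shRNA2 values of 3.68, 3.54 and 3.43. Its differences were 0.25 (limma adjusted p = 0.254) and 0.42 (adjusted p = 0.0713), and with the replicate block the second passed (adjusted p = 0.0197). Pex3 was 0.08 above control in the average (95% interval -0.09 to 0.26). In all, 3 of the 11 import and assembly genes rose in the average, 0 fell and 8 did not pass, where 9.69% of all genes rose and 7.89% fell. Their median was 0.23, and 10 of the 11 (90.9%) lay above control, where 49.9% of all genes did.

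**Figure D2:**
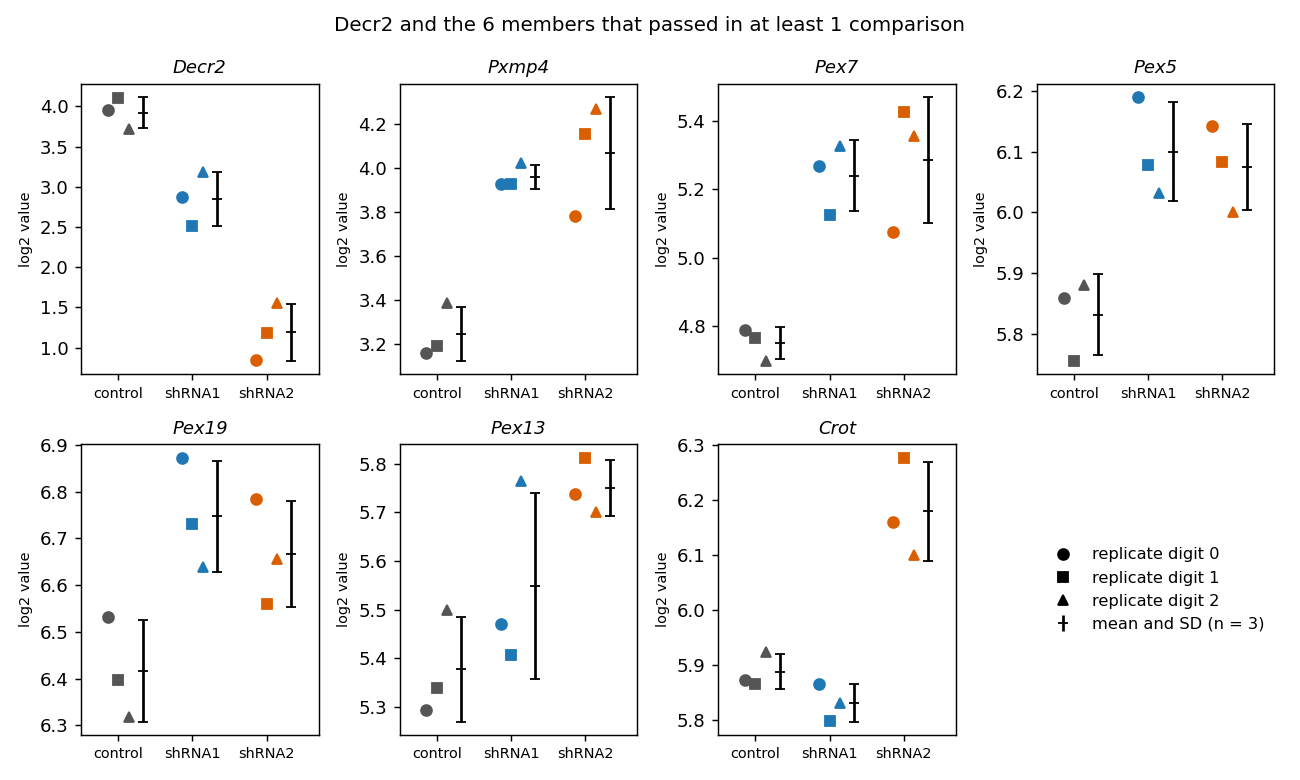
Log2 values of Decr2 and of the 6 genes of the set that passed in at least 1 comparison, by group; each point is 1 library, its shape gives the replicate number, and bars give the mean and SD of 3 libraries. Each panel has its own axis, which does not start at 0. Decr2 falls from control to shRNA2, Pxmp4 and Pex7 are higher in both hairpin lines, and the 3 shRNA2 libraries of Crot sit above its other 6.

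Among the membrane and division genes Pxmp4 showed the largest difference of the whole set. Pxmp4 (ENSMUSG00000000876, chromosome 2, from 154585758 to 154603708 on the minus strand in GRCm38) encodes a small integral protein of the peroxisomal membrane. Its log2 values were 3.16, 3.19 and 3.39 in the control libraries, 3.93, 3.93 and 4.02 with shRNA1, and 3.78, 4.15 and 4.27 with shRNA2. The lowest hairpin value was well above the highest control. Pxmp4 rose by 0.71 with shRNA1 (SE 0.14, limma adjusted p = 0.0134), a fold of 1.64, and by 0.82 with shRNA2 (SE 0.14, adjusted p = 0.00772), a fold of 1.77. Its call with shRNA2 held in all 15 alternatives run (adjusted p up to 0.041), and that with shRNA1 was lost only without control replicate 1 (adjusted p = 0.0601). The authors' deposited table gives Pxmp4 adjusted p-values of 0.0203 and 0.0119 and Pex7 0.0236 and 0.0165 for shRNA1 and shRNA2, and for Pex19 with shRNA1 and Pex13 with shRNA2 it gives 0.0521 and 0.052, which miss the threshold there.

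The other 4 genes of this role did not pass. Pex11g, of the family that elongates and divides peroxisomes, had low log2 values, 0.56, 0.59 and 0.39 with the control hairpin, 1.36, 0.88 and 0.61 with shRNA1 and 1.38, 0.98 and 0.74 with shRNA2. Each hairpin value was above the controls, but the hairpin groups spread widely (SD 0.38 and 0.32), and the average difference of 0.48 had a 95% interval of -0.08 to 1.04 (limma adjusted p = 0.209). Pex11a was at -0.06 in the average (95% interval -0.40 to 0.28). Acbd5, which tethers peroxisomes to the endoplasmic reticulum, was at -0.03 with shRNA1 and 0.28 with shRNA2 (adjusted p = 0.145). Pxmp2, a membrane channel, spread from 0.89 to 1.83 within the control libraries alone, and its average difference of 0.25 had an interval of -0.27 to 0.78.

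The DNA just upstream of Pxmp4, Pex7 and Pex5 is shown because these are the genes that passed in the average of both hairpins and have an entry in the promoter table used (RefSeq, GRCm38.p6, minus strand, written in the direction of the gene). The stretches are chr2:154603709-154603923 (215 bases) for Pxmp4, chr10:19907690-19907924 (235 bases) for Pex7 and chr6:124415068-124415317 (250 bases) for Pex5, and end before the annotated start of the gene. Capitals mark matches, on either strand, to the CCAAT box (CCAAT), an Sp1 site (GGGCGG) or an ETS site (CCGGAA).
Pxmp4: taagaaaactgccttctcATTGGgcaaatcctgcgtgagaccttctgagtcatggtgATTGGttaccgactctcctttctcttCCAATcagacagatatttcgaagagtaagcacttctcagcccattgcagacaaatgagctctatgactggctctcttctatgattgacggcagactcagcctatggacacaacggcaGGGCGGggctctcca
Pex7: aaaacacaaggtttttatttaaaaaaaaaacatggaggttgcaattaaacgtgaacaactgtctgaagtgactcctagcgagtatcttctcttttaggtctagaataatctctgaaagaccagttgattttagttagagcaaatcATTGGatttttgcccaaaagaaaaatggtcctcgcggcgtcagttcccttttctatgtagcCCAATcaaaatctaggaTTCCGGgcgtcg
Pex5: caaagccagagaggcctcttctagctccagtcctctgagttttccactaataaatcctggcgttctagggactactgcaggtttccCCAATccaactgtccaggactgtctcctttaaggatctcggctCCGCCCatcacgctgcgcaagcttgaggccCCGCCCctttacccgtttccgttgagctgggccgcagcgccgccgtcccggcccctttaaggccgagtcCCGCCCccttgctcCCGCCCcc
The stretch of Pxmp4 holds 3 CCAAT boxes and 1 Sp1 site, that of Pex7 2 CCAAT boxes and 1 ETS site. The Pex5 stretch shown holds 1 CCAAT box and 4 Sp1 sites. Their GC content is 48.8%, 38.3% and 61.6%. Pex5 had other annotated starts that are not shown. The stretch of one, chr6:124415856-124416105 (250 bases, GC content 54.4%), held 0 matches to each of these motifs. Another left only 46 bases, which lie within the stretch shown.

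Over the full promoter windows (250 bases before to 50 after a start) 29 of the 35 genes had an entry, with 36 windows in all; Pex2, Pex19, Pxmp2, Hsd17b4, Amacr and Crat had none. Peroxisome genes are a textbook target of PPAR nuclear receptors, which with RXR bind a direct repeat of AGGTCA with 1 base between the copies. That exact repeat, on either strand, was found in 0 of the 36 windows and in 0.036% of the 11058 windows of genes in the table. A repeat this rare is unlikely to be met in 36 windows, so the 0 does not show that PPAR sites are absent. A single AGGTCA, which lies inside the repeat, was found in 4 of 36, or 11.1%, against 12.2%. The CCAAT box was found in 16 of 36 (44.4% against 38.1%), the Sp1 site in 25 (69.4% against 64.5%) and the ETS site in 12 (33.3% against 29.3%). The E-box CACGTG was found in 1 window (2.78% against 10.2%), that of Gnpat, and neither TGATGNAA, an ATF4 type motif (2.14% of windows of genes in the table), nor the NRF1 palindrome (2.25%) was found in any. These are matches of letters within short windows and not measured binding.

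None of the 7 beta-oxidation genes passed with either hairpin or in the average. They had a median of 0.31 above control with shRNA1 and 0.14 with shRNA2. Acox3, the oxidase of branched-chain acyl-CoAs, had control values of 3.96, 3.86 and 4.21, shRNA1 values of 4.93, 4.30 and 4.21 and shRNA2 values of 4.46, 4.23 and 4.40. Replicate 0 of shRNA1 stood apart at 4.93, and the average difference was 0.41 (SE 0.16, limma adjusted p = 0.108). Acaa1a, the thiolase of the last step, was also highest in replicate 0 of each group, at 5.50 against 5.01 and 5.09 with the control hairpin, 6.11 against 5.48 and 5.32 with shRNA1, and 5.63 against 5.33 and 5.13 with shRNA2. Its difference of 0.43 with shRNA1 missed the threshold (adjusted p = 0.228), while the fit with a replicate block called it (adjusted p = 0.0124).

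Ehhadh and Hsd17b4 encode the 2 bifunctional enzymes that hydrate and dehydrogenate the acyl chain. Ehhadh had control values of 3.84, 3.73 and 3.64 and shRNA1 values of 4.16, 4.06 and 4.02. Its difference was 0.34 with shRNA1 (limma adjusted p = 0.0945, and 0.0318 with the replicate block) and 0.14 with shRNA2 (limma adjusted p = 0.466). Hsd17b4 had control values of 6.40, 6.53 and 6.53, shRNA1 values of 6.18, 6.32 and 6.35 that lay below all controls, and shRNA2 values of 6.49, 6.63 and 6.66 that overlapped them. Its difference was -0.20 with shRNA1 (SE 0.08, adjusted p = 0.141; 0.0395 with the replicate block) and 0.11 with shRNA2 (adjusted p = 0.426).

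Amacr, the racemase that prepares branched chains for oxidation, had control values of 3.81, 3.69 and 3.94, shRNA1 values of 4.39, 3.91 and 4.08, and shRNA2 values of 4.21, 4.19 and 4.31. The shRNA2 values were above the controls and close together, and the difference was 0.42 (SE 0.13, limma adjusted p = 0.0627; 0.0276 with the replicate block). Its average difference was 0.37 (adjusted p = 0.0517; 0.0225 with the replicate block). Cat, the catalase that removes hydrogen peroxide, was 0.09 above control in the average (95% interval -0.07 to 0.25), and Scp2, a thiolase and sterol carrier, was at -0.01 (-0.26 to 0.23).

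Of the 4 genes that move acyl groups in and out, Crot passed with shRNA2, and Abcd3, Crat and Acot8 passed in no comparison. Crot, a carnitine octanoyltransferase that exports shortened chains, had log2 values of 5.87, 5.87 and 5.92 with the control hairpin and 5.87, 5.80 and 5.83 with shRNA1, which overlap. The shRNA2 values were 6.16, 6.28 and 6.10. Crot rose by 0.29 with shRNA2 (SE 0.07, limma adjusted p = 0.0296), a fold of 1.22, and stood at -0.06 with shRNA1 (95% interval -0.22 to 0.10). The call failed on leaving out any control library (adjusted p = 0.0668, 0.112 and 0.0872 for replicates 0, 1 and 2), any shRNA2 library (0.0564, 0.109 and 0.0603) or shRNA1 replicate 2 (0.0503), with differences of 0.24 to 0.33 over the alternatives run. Abcd3, a transporter of acyl-CoAs in the peroxisomal membrane, was at -0.07 in the average (95% interval -0.23 to 0.10). Crat, the short-chain acetyltransferase, was at -0.01 (-0.30 to 0.28) and Acot8, a thioesterase, at -0.00 (-0.35 to 0.34).

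Hacl1, the lyase that removes 1 carbon in alpha-oxidation, was the only gene of that pathway in the table. Its values were 3.19, 2.92 and 2.60 with the control hairpin, 3.64, 3.47 and 3.12 with shRNA1 and 3.18, 3.39 and 3.35 with shRNA2. The highest control overlapped both hairpin groups. The average difference of 0.45 missed the threshold (SE 0.16, limma adjusted p = 0.0782). It passed with the block (0.0339), without control replicate 0 (0.60, adjusted p = 0.0482) and without the 3 libraries numbered 0 (0.57, adjusted p = 0.012). Over its 14 alternatives the adjusted p ran up to 0.305.

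None of the 7 ether lipid genes passed, and their median was 0.02 above control in the average. Gnpat, which starts the pathway by acylating dihydroxyacetone phosphate, had control values of 6.35, 6.64 and 6.56, shRNA1 values of 6.94, 6.76 and 6.71 and shRNA2 values of 6.68, 6.75 and 6.94. All 6 hairpin values lay above the controls, and the average difference was 0.28 (SE 0.09, limma adjusted p = 0.0643; 0.0476 with the replicate block). Agps, which exchanges the acyl for an alkyl chain, had log2 values of 7.66, 7.80 and 7.61 with the control hairpin, 7.08, 7.65 and 7.62 with shRNA1 and 7.55, 7.61 and 7.71 with shRNA2. Far1, which supplies the fatty alcohol, had values of 6.81, 6.62 and 6.71, then 6.06, 6.77 and 6.68, then 6.58, 6.69 and 6.67. In both genes replicate 0 of shRNA1 was far below all other libraries, and the average differences were -0.15 (95% interval -0.43 to 0.13) and -0.14 (-0.45 to 0.18).

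Selenoi, the ethanolamine phosphotransferase that acts late in the pathway, was the lowest gene of the set by average difference. It had values of 6.27, 6.27 and 6.36 with the control hairpin, 5.58, 6.14 and 6.06 with shRNA1 and 6.18, 5.90 and 6.01 with shRNA2, so all 6 hairpin values were below the controls. The average difference of -0.32 did not pass (SE 0.12, limma adjusted p = 0.0982). It passed without shRNA1 replicate 0 (-0.24, adjusted p = 0.0435) and without the 3 libraries numbered 0 (-0.29, adjusted p = 0.00558), and over the alternatives run the adjusted p reached 0.275. Agpat3, an acyltransferase, lay above all controls in the 6 hairpin libraries by little (average 0.17, adjusted p = 0.134). Dhrs7b, which reduces the alkyl intermediate, and Cept1, a choline and ethanolamine phosphotransferase, were at 0.02 (95% interval -0.15 to 0.19) and 0.08 (-0.10 to 0.26).

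**Figure D3:**
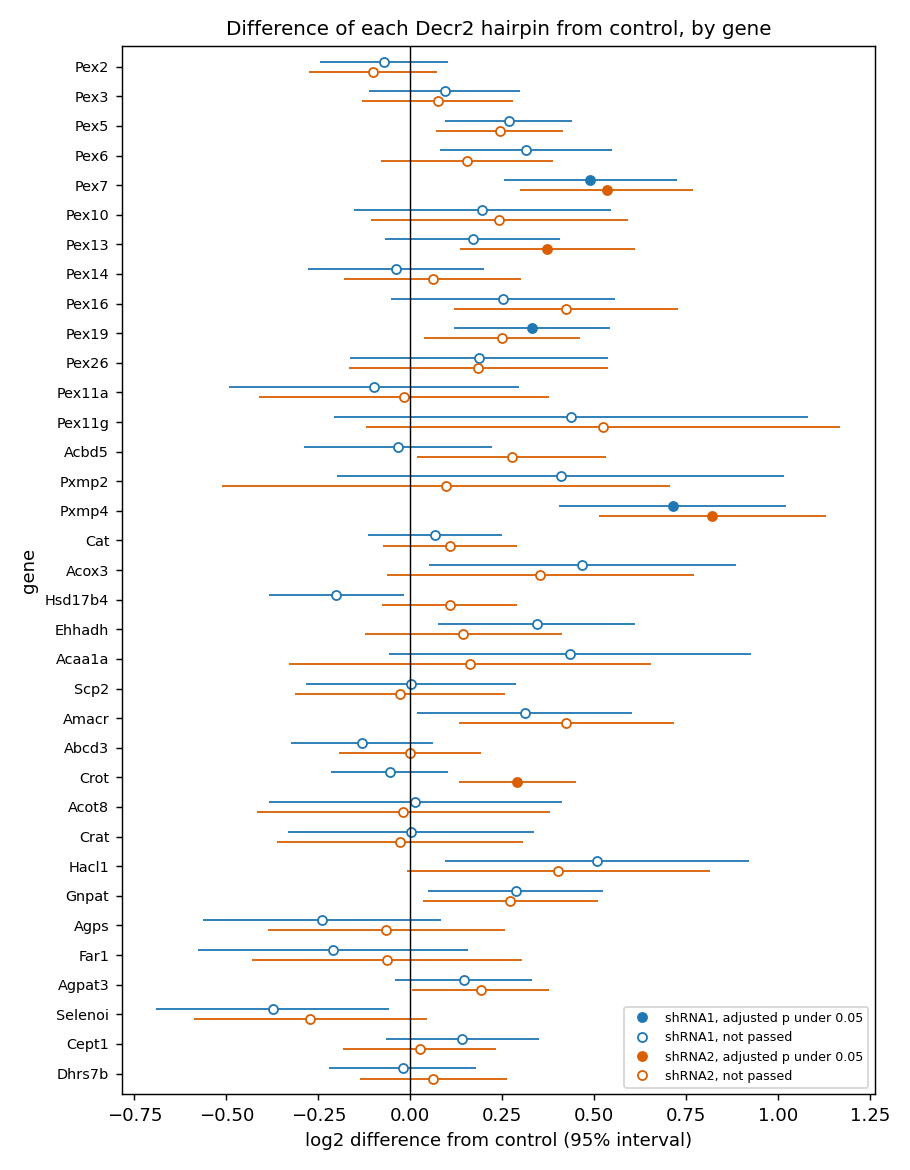
Log2 difference from control of each of the 35 genes (rows) with shRNA1 (blue) and shRNA2 (orange), with 95% intervals from the limma fit; filled points passed at an adjusted p under 0.05. Pxmp4 and Pex7 are filled for both hairpins, and most other intervals reach 0 or lie close to it.

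Counted by library ranges, 9 of the 35 genes had all 3 shRNA1 values above the control range (25.7%, where 17.3% of all genes did) and 2 had them below (5.71% against 16.6%). With shRNA2, 15 had all values above (42.9% against 20.1%) and 2 below (5.71% against 18.7%). In all 6 hairpin libraries 7 genes were above (Pxmp4, Pex7, Pex5, Pex19, Pex11g, Gnpat and Agpat3; 20% against 12%) and Selenoi was below (2.86% against 10.9%).

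Between the knockdown lines 0 of 35 genes passed (limma, adjusted p under 0.05), where 0.455% of all genes did. An unadjusted p under 0.05 was reached by 3 genes, or 8.57%, compared with 10% of all genes. Crot was 0.35 higher with shRNA2 than with shRNA1 (95% interval 0.19 to 0.51, adjusted p = 0.0909), with no overlap of the lines. Hsd17b4 was 0.31 higher with shRNA2 (95% interval 0.13 to 0.49, adjusted p = 0.192), again without overlap, and was called with the block (adjusted p = 0.0448), where 1.87% of all genes passed and 0.827% were higher with shRNA2. Acbd5 was 0.31 higher (0.05 to 0.57, adjusted p = 0.391). All 3 shRNA2 libraries lay above the shRNA1 range in 4 genes (Crot, Acbd5, Hsd17b4 and Abcd3), or 11.4%, where 7.72% of all genes did so. In 0 genes they lay below it, where 6.68% of all genes did. Without the 3 libraries numbered 0, Crot (adjusted p = 0.0187) and Hsd17b4 (0.0125) passed, in a fit where 8.87% of all genes did, 3.92% higher and 4.95% lower with shRNA2. For Pxmp4 the difference between the lines was 0.11 (95% interval -0.20 to 0.42), beside a difference of -1.66 for Decr2 itself.

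By rank, the libraries numbered 0 were at the same end of every group in 12 of these genes, as in many genes of the whole table. The count asks for no minimum gap: Pxmp4 with shRNA1 had 3.9286 in replicate 0 and 3.9289 in replicate 1. In 9 genes replicate 0 was the highest library of its group in all 3 groups (Pex16, Pex19, Pex26, Acaa1a, Ehhadh, Pex11a, Acot8, Scp2 and Crat; 25.7%, where 19.6% of all genes did so), and in 3 it was the lowest in all 3 (Pxmp4, Hsd17b4 and Abcd3; 8.57% against 19.4%). The gap was widest for Acaa1a, at 0.45, 0.71 and 0.40 above the mean of replicates 1 and 2 in the control, shRNA1 and shRNA2 groups. For Acaa1a this gap of 0.52 on average exceeded its difference between hairpins and control. What the number stands for is not given in the labels.

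With the replicate number as a block in the fit, 9 of the 35 genes passed with shRNA1 (8 higher), where 24.6% of all genes passed, 13.4% higher and 11.2% lower. With shRNA2 8 passed, all higher, against 24% of all genes, 13.4% higher and 10.6% lower. In the average 10 passed, all higher, against 30.3%, 16.2% higher and 14.1% lower. Pxmp4, Pex7, Pex5 and Pex19 then passed with each hairpin, where 15.4% of all genes did, 9.17% higher and 6.24% lower. Without the 3 libraries numbered 0, 9 passed with shRNA1 (7 higher), where 34.5% of all genes did, 17.6% higher and 16.9% lower. With shRNA2 11 passed (10 higher), against 37.3%, 19.2% higher and 18.1% lower. In the average 10 passed (9 higher), against 41.4%, 20.9% higher and 20.5% lower, and 6 passed with both hairpins (5 higher), against 23.7%, 12.6% higher and 11.1% lower. Selenoi was among the fallen genes in each. Counted in either direction, the share of the set was below that of all genes without those libraries and near it with the block. Counted as higher alone, it was above: 22.9%, 22.9% and 28.6% of the set with the block for shRNA1, shRNA2 and the average, and 20%, 28.6% and 25.7% without those libraries.

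**Figure D4:**
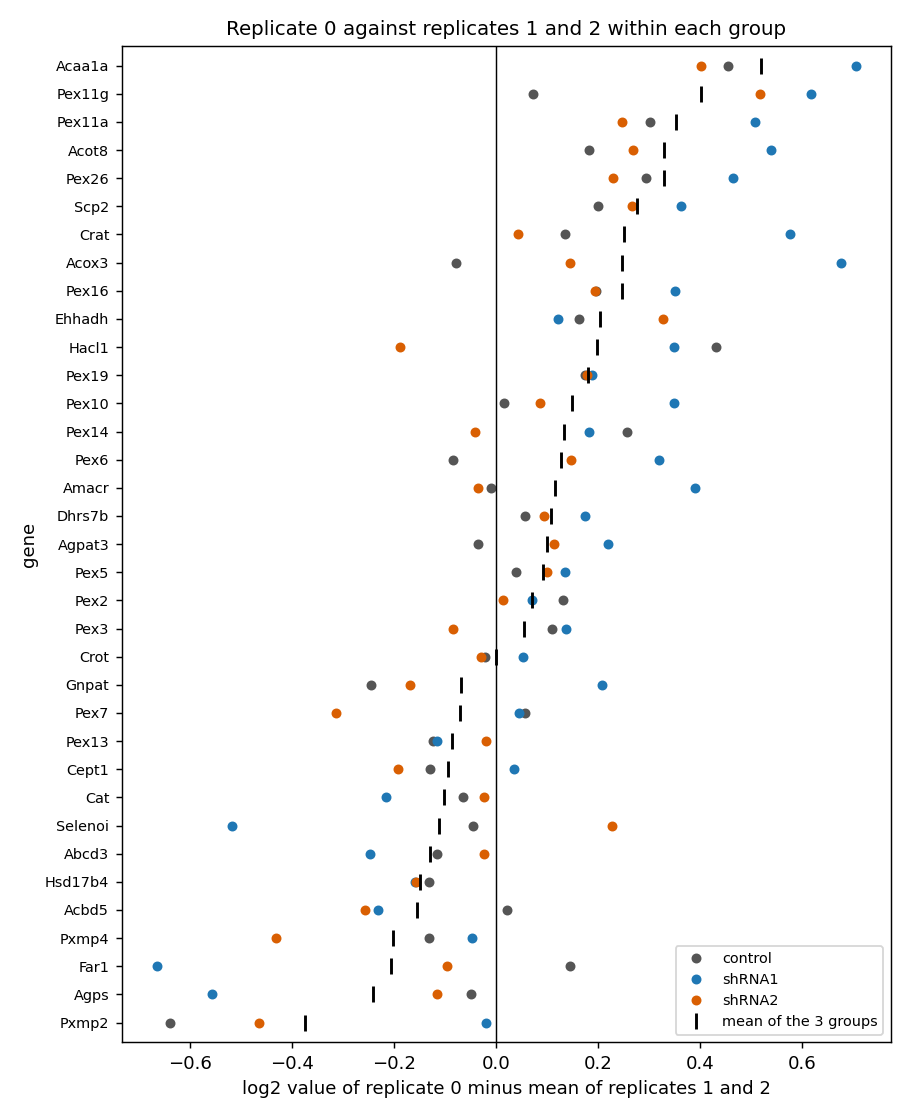
Log2 value of replicate 0 minus the mean of replicates 1 and 2, within each group (points) and averaged over the 3 groups (black ticks), for the 35 genes sorted by that average. Acaa1a lies well above 0 in every group, and Agps and Far1 lie far below 0 in the shRNA1 group alone.

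A wider list of genes linked to peroxisomes, by symbol outside the set, was read from the same fit. Like the set, it was chosen with earlier results of these data known. It includes regulators such as Ppard and Tfeb, and not every gene on it encodes a peroxisomal protein. Of 103 listed symbols 71 were in the table. The list holds some names of the same gene, and Ept1 is an older name of Selenoi, so 103 does not count separate genes. Of the 71, 12 rose in the average and 0 fell, or 16.9%. Of all genes 9.69% rose, 7.89% fell and 17.6% passed in either direction. Their median was 0.05. An unadjusted p under 0.05 was reached by 20 of the 71 (28.2% against 33.2% of all genes). Mpv17l, a membrane protein of the Pxmp2 family, rose by 0.64 (SE 0.10, limma adjusted p = 0.00491), and Acbd4, a relative of Acbd5, by 0.62 (SE 0.10, adjusted p = 0.0048). Paox, a peroxisomal polyamine oxidase, rose by 0.66, Ppard, a PPAR nuclear receptor, by 0.55, and Abcd4 by 0.39. Pecr, a peroxisomal enoyl-CoA reductase, rose by 0.49, Lactb2 by 0.41 and Gstk1, a glutathione transferase, by 0.45. Leaving out control replicate 1 or control replicate 2 reduced the 12 calls to 2 each. How many of all genes passed in those fits is not given here, so the drop cannot be called particular to these genes.

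Among the listed genes that did not pass in the average, Tfeb, a transcription factor of lysosomal genes, was 0.85 above control (limma adjusted p = 0.0725; 0.000471 with the replicate block). Idh1, a cytosolic and peroxisomal NADPH source, fell by 0.41 with shRNA1 (adjusted p = 0.0189) and was 0.27 above control with shRNA2 (adjusted p = 0.0696; 0.0497 with the replicate block). Its values were 7.10, 6.86 and 6.80 with the control hairpin, 6.47, 6.52 and 6.55 with shRNA1 and 7.15, 7.24 and 7.17 with shRNA2, so the lines lay on either side of the controls, and the difference between them of 0.68 passed (adjusted p = 0.0185). Tfeb and Idh1 were chosen after their values were seen.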

How the data were processed

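RNA sequencing of 9 cultured B16.SIY libraries was read from 1 deposited table. Its deposited log2 values, log2 fold changes and adjusted p-values were made by the authors; kallisto, FastQC and limma appear in the submitters' processing notes, with no version. The sources used here do not state the genome build, the annotation or how genes were filtered. Library columns carry short codes. Which Decr2 hairpin a column belongs to was read from the authors' headed comparisons, whose shRNA1 fold changes lay within 0.05 of the columns taken as shRNA1 for 99.95% of genes; an exchange of the headings would exchange the hairpin names. No column of library values was left without a sample.

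All 10762 genes were fitted with limma 3.58.1 in R 4.3.3 (group means, all 9 libraries, intensity trend, no filter or pseudocount). Prior and residual degrees of freedom were 3.30 and 6. The code was run on simulated data with independent noise in each library. That does not test the fit under the shared deviations described below. The Benjamini-Hochberg adjustment ran over the whole table. SE and 95% intervals come from this fit. The average comparison is the mean of both hairpins against control. Same-numbered libraries of different groups deviated together (correlations of deviations from group means across genes 0.13 to 0.64), and so did numbers 1 and 2 (0.13 to 0.53), while 0 ran against both (-0.63 to -0.24), so the number was used as a block in an alternative fit. Alternatives were the block, the groups compared alone, a filter on the lowest 25%, median centring, a pseudocount of 1, no trend, and leaving out each library or the 3 numbered 0. Genes given by library were those called in any comparison, the 3 largest differences among the others and the highest and lowest by level; further genes were added after their values were seen. Members and lists were chosen with earlier results of these data known. Coordinates are from GENCODE M21 (GRCm38), which may not be the authors' build; promoters are from RefSeq. One listed gene is not reported here.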

Additional observations from a re-analysis of the deposited data

How the results depend on the processing

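The count of genes of the set that passed depended on the fit, with no direction reversed in any difference examined. With the replicate block it was 9 with shRNA1, 8 with shRNA2, 10 in the average, 4 with both hairpins and 1 between the lines, compared with 3, 4, 4, 2 and 0. Without the 3 libraries numbered 0 it was 9, 11, 10, 6 and 2. In that fit 28 genes of the wider list passed in the average in place of 12 (39.4%, where 41.4% of all genes did). With the lowest 25% of genes removed, 24 of the 35 genes were left. Of these, 1 passed with shRNA1 and 1 with both hairpins, and 6 genes of the wider list passed in the average. Leaving out 1 library gave 0 to 3 calls with shRNA1, 1 to 8 with shRNA2 and 2 to 7 in the average. It gave 0 to 2 with both hairpins, 0 between the lines, and 2 to 15 in the wider list. For the filter and for leaving out 1 library, the share of all genes that passed is not given here. A change particular to the set cannot be told apart there from one across the whole table. The lowest counts with shRNA1 and with both hairpins came without control replicate 1, the lowest in the average without control replicate 1 or 2, and the highest with shRNA2 and in the average without shRNA1 replicate 0. Decr2 stayed lower in all alternatives: from -1.23 to -0.90 with shRNA1 and from -1.84 to -1.49 between the lines on leaving out 1 library, where its call with shRNA1 was lost 3 times and between the lines 7 times, and at -1.66 (adjusted p = 0.116) with only the lines compared. Fitting only the groups compared does not apply to the average. Read depth is unknown, so counting error could not be given.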
